A study of Rattus norvegicus with 20 samples.

Results

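The medium-chain acyl-CoA synthetases of the Acsm family and their relatives Acsf2 and Acsf3 were followed in whole kidneys of rats given a calcineurin inhibitor. Genes were taken by symbol from either deposited table (Acsm1, Acsm2, Acsm3, Acsm4, Acsm5, Acsf2, Acsf3) and carried to the other table by identifier. The 7 symbols came to 6 genes of the 32907 identifiers in the tables, because Acsm1 in the cyclosporine A table and Acsm2 in the tacrolimus table carry the same identifier. That gene is called the Acsm1/Acsm2 locus here. The family was selected on measured values of these libraries, namely that Acsm3 was higher with cyclosporine A and that Acsf3 varied widely between libraries. The cyclosporine A values of the members and the spread of Acsf3 are therefore given below as descriptions, and nothing is concluded from a call or rank on them.

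The animals were adult male Wistar rats, 10 to 12 weeks old, labelled wild type, treated for 28 days through an osmotic minipump under the skin. Cyclosporine A (n = 4, target trough written as 3 mg/ml in the series text) was set against saline (n = 4). Tacrolimus (n = 6, target trough 3.5 ng/ml) was set against its solvent, 25% DMSO with 75% polyethylene glycol (n = 6, called DMSO/PEG below). The labels number the replicates but do not state that each library is a separate animal, so spreads and p-values describe these libraries. Because the 2 drugs were measured against different vehicles in separate tables, differences between the drugs cannot be told apart from those between vehicles or tables.

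Acyl-CoA synthetases join a fatty acid to coenzyme A at the cost of ATP, the step that commits the acid to oxidation, conjugation or synthesis. The Acsm enzymes sit in the mitochondrial matrix and take medium-chain fatty acids, butyrate or aromatic acids such as benzoate, and the aromatic acyl-CoAs can then be joined to glycine and excreted. In kidney they belong to the proximal tubule. Acsm1 is a butyryl-CoA synthetase and Acsm2 a kidney-enriched relative. Acsm3 was first described as the SA gene, which is strongly expressed in kidneys of spontaneously hypertensive rats. Acsm4 is the olfactory member. Acsf2 activates medium-chain acids, and Acsf3 is a mitochondrial malonyl-CoA synthetase that feeds mitochondrial fatty acid synthesis and clears malonate.

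Assigned fragments per library, read from the value of 1 fragment, numbered 30467652 to 34307942 for cyclosporine A and saline. For tacrolimus and DMSO/PEG, where fragments were summed over genes, they numbered 31670202 to 39358485. Mitochondrial genes took 49.7% to 68.6% of them with saline and 80.2% to 90.8% with cyclosporine A (exact 2-sided permutation test, p = 0.0286, the smallest that 70 arrangements allow). Their share was 10.5% to 13.7% with DMSO/PEG and 10.8% to 15.9% with tacrolimus (exact permutation p = 0.606). Deposited FPKM (fragments scaled to gene length and to the fragments of the library) count the mitochondrial fragments in the cyclosporine A table. Values there are therefore given as rescaled FPKM, in which the median gene ratio between libraries is set equal, with the deposited values beside them. The tacrolimus values already have that property. Cyclosporine A replicate 4 had the highest mitochondrial share and 2905422 nuclear fragments, the fewest of the 20 libraries. Proximal tubule transporters and enzymes identified the tissue, with a 15-gene list summing to 716.5 to 1800 rescaled FPKM in the cyclosporine A table and 7543 to 9042 FPKM in the other. A list of 6 hepatocyte genes summed to at most 1.90 in any library.

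The Acsm genes lie side by side on chromosome 1 (positions as deposited, build rn6 in the submitters' processing notes). Acsm5 spans 189233141 to 189272172, the Acsm1/Acsm2 locus 189289957 to 189395276, Acsm4 189432604 to 189457048 and Acsm3 189514553 to 189541224, all on the plus strand. Acsf2 is on chromosome 10 (82284720 to 82326771, minus strand) and Acsf3 on chromosome 19 (55594831 to 55635122, plus strand). RefSeq, on the later assembly GRCr8, lists Acsm2 and Acsm1 as 2 genes between Acsm5 and Acsm4, with 1 other gene between them, where the deposited tables list a single gene. The tables also treat that gene differently. Values of the tacrolimus table came out as whole fragments with the listed length of 4594 bases, while those of the cyclosporine A table did so with 2083 bases. For Acsm5 the lengths were 3618 and 2645 bases. Levels of these 2 genes are therefore on different length scales in the 2 tables, and fragments from Acsm1 and from Acsm2 cannot be told apart.

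Promoters in RefSeq (250 bases before to 50 after the start, GRCr8) were found for 5 of the 7 symbols, Acsm1 to Acsm5. Acsf2 and Acsf3 are named only. The promoter of Acsm3 (chr1:183564402-183564701, plus strand) is shown because this gene carried the main difference with cyclosporine A. Those of Acsm2 (chr1:183347455-183347754, plus strand) and Acsm1 (chr1:183416802-183417101, plus strand) are shown because the tables give these 2 symbols to a single identifier. Which of the 2 starts gave the counted fragments is not known. Capitals mark matches, on either strand, to GGAAA (the core bound by NFAT, the transcription factor that calcineurin activates), GTTAAT (an HNF1 half-site) or CCAAT.
Acsm3: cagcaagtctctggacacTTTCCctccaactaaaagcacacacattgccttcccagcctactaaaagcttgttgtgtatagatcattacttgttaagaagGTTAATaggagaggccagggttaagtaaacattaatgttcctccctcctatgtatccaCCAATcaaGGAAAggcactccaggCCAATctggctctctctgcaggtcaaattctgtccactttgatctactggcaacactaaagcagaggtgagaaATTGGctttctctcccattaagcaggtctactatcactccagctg
Acsm2: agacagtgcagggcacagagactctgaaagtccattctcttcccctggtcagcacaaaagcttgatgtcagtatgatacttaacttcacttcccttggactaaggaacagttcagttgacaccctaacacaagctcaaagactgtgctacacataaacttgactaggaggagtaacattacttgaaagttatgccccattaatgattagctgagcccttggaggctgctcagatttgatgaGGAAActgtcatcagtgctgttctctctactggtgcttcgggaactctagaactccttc
Acsm1: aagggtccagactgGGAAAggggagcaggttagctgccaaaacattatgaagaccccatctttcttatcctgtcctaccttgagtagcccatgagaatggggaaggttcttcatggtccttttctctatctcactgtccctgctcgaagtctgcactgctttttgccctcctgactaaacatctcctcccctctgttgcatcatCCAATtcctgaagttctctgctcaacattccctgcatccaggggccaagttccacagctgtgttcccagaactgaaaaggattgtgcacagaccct
The Acsm3 promoter held 2 matches to GGAAA, 1 to GTTAAT and 3 to CCAAT, and none of these overlapped another. It held 0 CG dinucleotides, where the median of 33469 RefSeq promoters of this length was 7, and the Acsm2 and Acsm1 promoters held 1 each. GGAAA occurs in 62.7% of those promoters, CCAAT in 37.5% and GTTAAT in 7.45%. Searches for CAAAGTC (an HNF4 half-site, 4.61% of promoters) and TATAAA (14.2%) gave no match in these 5 windows. These are descriptions of letters in a window. The data hold no measurement of factor binding.

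With cyclosporine A, Acsm3 was higher in every library than in any saline library. Rescaled FPKM of Acsm3 were 4.53, 3.79, 3.34 and 2.20 in saline replicates 1 to 4, and 22.4, 23.0, 33.4 and 8.03 in cyclosporine A replicates 1 to 4. The groups did not overlap, and the lowest drug library was replicate 4. Acsm3 averaged 3.46 ± 0.976 (SD, n = 4) with saline and 21.7 ± 10.4 (SD, n = 4) with the drug, a ratio of 6.27. Its log2 fold change, here and below of rescaled FPKM + 1, was 2.22 with a standard error of 0.36. As deposited, Acsm3 had 9.001, 4.73, 5.05 and 3.73 FPKM with saline and 13.8, 18.8, 24.6 and 3.40 with cyclosporine A. On that scale replicate 4 lay below all 4 saline libraries and the other 3 above them, with a log2 fold change of 1.08 (SE 0.44) against a median of −0.86 over all tested genes. The fragments behind Acsm3 numbered 789, 396, 408 and 290 with saline and 1078, 1585, 1988 and 275 with the drug. Without cyclosporine A replicate 4 the log2 fold change was 2.62.

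**Figure D1:**
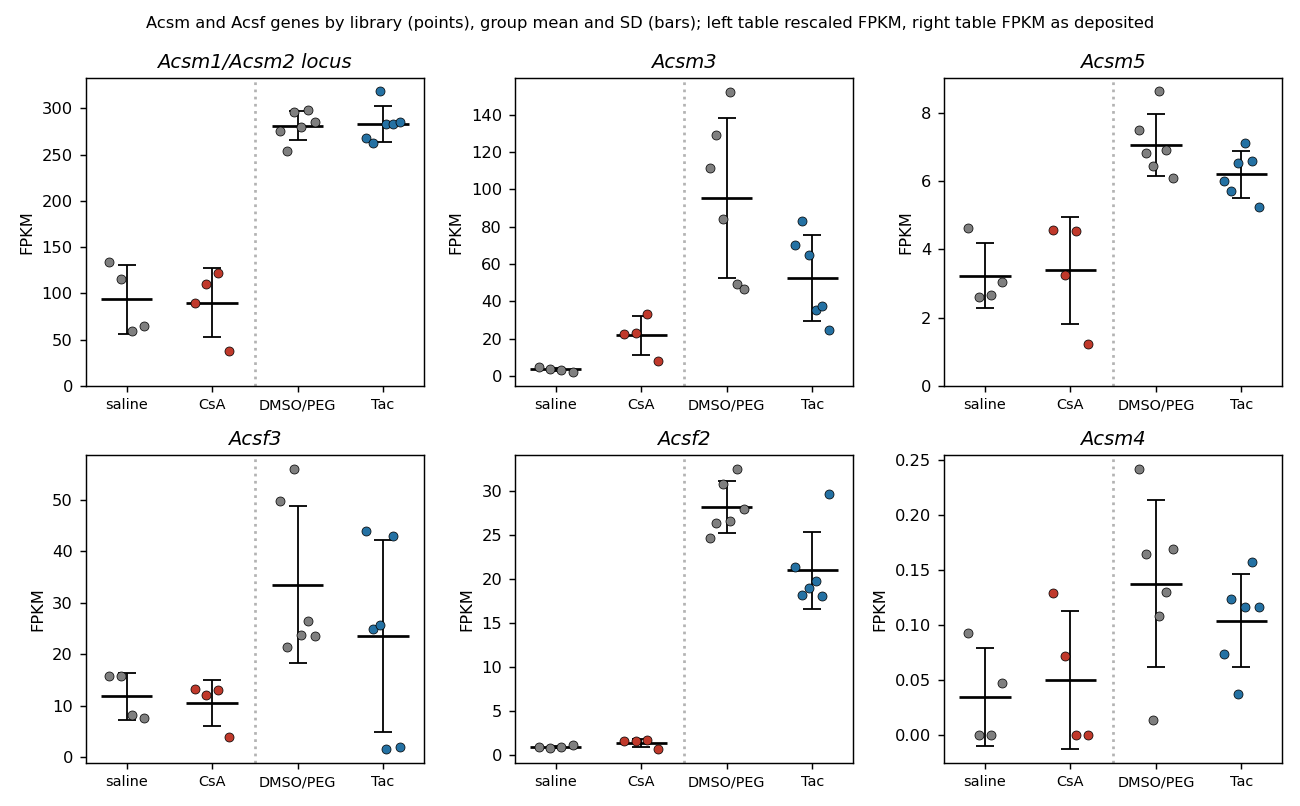
Values of the 6 genes in each library (points, by replicate number from left to right), with group mean (line) and SD (bar). The vertical axes are FPKM, rescaled for saline and cyclosporine A (CsA) and as deposited for DMSO/PEG and tacrolimus (Tac). Levels on either side of the dotted line were normalized separately. All 4 CsA libraries lie above the saline libraries for Acsm3, and the Acsf3 panel shows 2 Tac libraries at 1.64 and 1.98.

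On rescaled FPKM the other members showed no such separation with cyclosporine A. The Acsm1/Acsm2 locus, the highest of the family in every library, had 134, 116, 59.2 and 64.7 rescaled FPKM with saline and 89.6, 110, 122 and 37.4 with the drug. Saline replicates 1 and 2 and cyclosporine A replicates 2 and 3 were high, and the groups overlapped. The summed proximal tubule list was highest in the same 4 libraries, with 1800, 1662, 1290 and 1347 rescaled FPKM with saline and 1161, 1547, 1650 and 716.5 with the drug, and its part in the values of the locus was not tested. The log2 fold change of the locus was −0.10 (SE 0.39). Acsm5 had 4.62, 2.60, 2.66 and 3.04 with saline and 4.56, 3.24, 4.53 and 1.21 with the drug, a log2 fold change of −0.01 (SE 0.29). Acsf2 had 0.889, 0.809, 0.950 and 1.11 with saline and 1.58, 1.59, 1.70 and 0.726 with the drug. For Acsf2 3 drug libraries lay above all saline libraries and replicate 4 below them, with a log2 fold change of 0.29 (SE 0.16). Acsf3 had 15.8, 15.7, 8.27 and 7.59 with saline and 13.3, 12.04, 12.99 and 3.92 with the drug, a log2 fold change of −0.20 (SE 0.37).

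Cyclosporine A replicate 4 was the lowest drug library for each of the 5 tested members. It also had the lowest proximal tubule sum (716.5) and straight-segment sum (627.6) of the 8 libraries, and the highest sums of principal cell (252.7), intercalated cell (252.6), podocyte (11.99) and leukocyte markers (220.4). The part of this makeup in the member values was not tested. Without it the log2 fold changes of the Acsm1/Acsm2 locus, Acsm5 and Acsf3 turned to 0.27, 0.29 and 0.17, and that of Acsf2 was 0.44. On deposited FPKM the Acsm1/Acsm2 locus (−1.41), Acsm5 (−0.97), Acsf2 (−0.39) and Acsf3 (−1.37) all had negative values, on either side of the median of −0.86 over all tested genes. All 4 drug libraries of Acsf3 (1.66 to 9.82 FPKM as deposited) lay below the saline libraries (12.5 to 31.5). The sign of Acsf2 differed between the scalings, but it lay above the median of all tested genes on both. Acsm4, the olfactory member, was not tested here: it had 18 fragments over the 4 saline libraries (95% exact Poisson interval 10.7 to 28.4, counting error only) and 9 over the 4 drug libraries (4.12 to 17.1), with 2 libraries at 0 in each group.

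The cyclosporine A values helped choose the family, so the counts that follow were fixed in part by that choice and are no evidence about it. Of the 5 members in the limma fit, 1 was called (Acsm3, higher). Over all 14129 tested genes 0.51% were called in either direction and 0.276% higher. Groups did not overlap for 1 of the 5 and for 10.6% of all genes. On deposited FPKM 4 of 5 were called, Acsm3 higher and 3 lower, and so were 75.4% of 14318 genes (0.237% higher, 75.2% lower). The median log2 fold change of the 5 was −0.01 rescaled and −0.97 deposited.

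**Figure D2:**
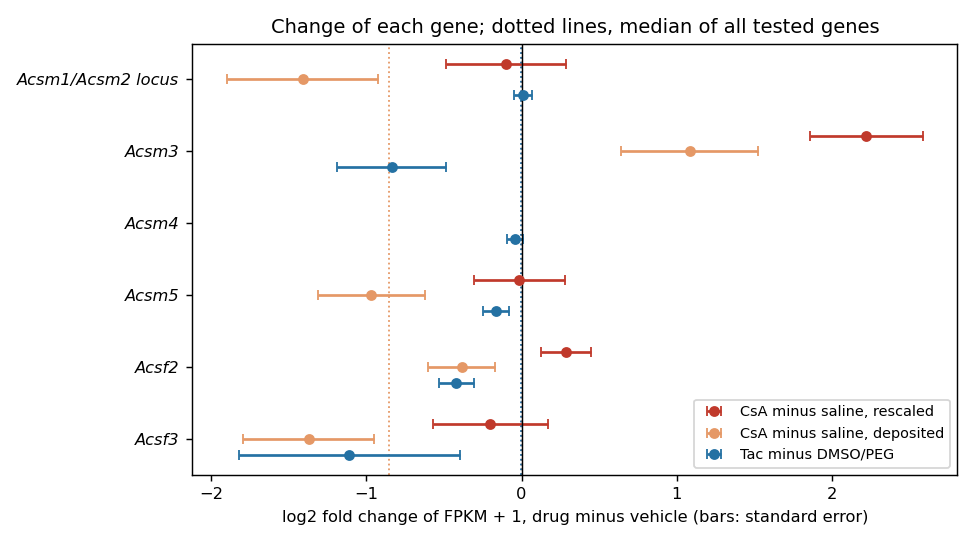
Log2 fold change of FPKM + 1, drug minus vehicle (horizontal axis), with its standard error (bars) for each gene. Cyclosporine A (CsA) is shown on rescaled and on deposited values, and tacrolimus (Tac) on deposited values. Dotted lines mark the median of all tested genes. Acsm3 lies at 2.22 with CsA (rescaled) and at −0.84 with Tac, and the deposited CsA values of the other genes lie from −1.41 to −0.39, on either side of their dotted line at −0.86.

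With tacrolimus none of the 6 genes was called (limma, adjusted p under 0.05), against 0.292% of 16808 tested genes. An unadjusted p under 0.05 was reached by 2 of 6, Acsf2 and Acsm3, against 8.27% of all genes. No member's groups were free of overlap, against 0.94% of all genes. The median log2 fold change of the 6 was −0.29, and that of all genes was −5.0e-04.

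Acsf2 was lower in 5 of 6 tacrolimus libraries than in every vehicle library. Its FPKM ran from 24.6 to 32.5 with DMSO/PEG (median 27.3) and from 18.1 to 29.7 with tacrolimus (median 19.4). Replicate 6, at 29.7, stood among the vehicle values and the other 5 lay between 18.1 and 21.4. Acsf2 averaged 28.2 ± 2.96 FPKM (SD, n = 6) in the vehicle libraries, compared with 21.0 ± 4.41 (SD, n = 6) in the drug libraries. Its log2 fold change was −0.42 (SE 0.11, limma adjusted p = 0.201). Without tacrolimus replicate 6 it was −0.52 with a limma adjusted p of 0.00828, and with library weights −0.46 with an adjusted p of 0.0365. In all other alternatives run Acsf2 was not called, with a limma adjusted p from 0.1845 to 0.371. Tacrolimus replicate 6 also had the highest mitochondrial share of its table, 15.9%. The summed thick ascending limb markers had a like pattern. Tacrolimus replicates 1 to 5 had 1804 to 2074 FPKM, below the 2224 to 2736 of the vehicle libraries, and replicate 6 had 2758. Such a sum mostly follows its highest genes, and Umod of this segment alone averaged 1952 FPKM with DMSO/PEG and 1718 with tacrolimus. The part of these in the Acsf2 values was not tested.

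Acsm3, higher with cyclosporine A, had the opposite sign with tacrolimus. It ran from 46.8 to 151.9 FPKM with DMSO/PEG (median 97.7) and from 24.6 to 82.9 with tacrolimus (median 51.2). All 6 drug libraries lay below the vehicle median and 3 below every vehicle library, while the remaining 3 overlapped the vehicle group. Acsm3 averaged 95.3 ± 42.9 FPKM (SD, n = 6) in the vehicle libraries, compared with 52.5 ± 23.2 (SD, n = 6) in the drug libraries. Its log2 fold change was −0.84 (SE 0.35, limma adjusted p = 0.531). It passed in none of the 19 alternatives run, whose adjusted p ran from 0.326 to 0.752. The difference between its changes with the 2 drugs was not tested, because the cyclosporine A change had chosen the gene.

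The Acsm1/Acsm2 locus was the steadiest member in this table, with 281.5 ± 16.1 FPKM (SD, n = 6) under DMSO/PEG and 283.5 ± 19.4 (SD, n = 6) under tacrolimus. Its log2 fold change was 0.01 (SE 0.06, limma adjusted p = 0.987). A smaller spread within groups was found for 9.56% of the 13043 tested genes with a mean FPKM of at least 1. Acsm5 had 7.07 ± 0.905 (SD, n = 6) and 6.197 ± 0.677 (SD, n = 6), with 3 drug libraries below all vehicle libraries and a log2 fold change of −0.16 (SE 0.09, limma adjusted p = 0.665). Acsm4 was near the limit of detection, with 59 fragments over 6 vehicle libraries and 47 over 6 tacrolimus libraries, and a log2 fold change of −0.04 (limma adjusted p = 0.91).

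The Acsf3 values of the tacrolimus table are described here in bands, which were set after the values had been seen and were not tested. Tacrolimus replicates 4 and 6 had 1.64 and 1.98 FPKM, from 128 and 137 fragments. The next library, vehicle replicate 2, had 21.4, a step of 10.8-fold. A middle band of 6 libraries, 4 vehicle and 2 tacrolimus, lay between 21.4 and 26.5. A further step of 1.62-fold led to 4 libraries, 2 of each group, between 42.9 and 55.9. The group means were 33.5 ± 15.2 (SD, n = 6) with DMSO/PEG and 23.5 ± 18.7 (SD, n = 6) with tacrolimus. The log2 fold change of Acsf3 was −1.11 (SE 0.71, limma adjusted p = 0.752). The spread of Acsf3 within groups (59.8% of its mean) was larger than that of 97.4% of the 13043 genes, whose median was 11.99%. This spread is what the gene was chosen for, so its rank is a description. Tacrolimus replicates 4 and 6 also had the lowest Acsm3 values of the 12 libraries (35.1 and 24.6 FPKM), the lowest summed adipocyte markers (52.79 and 58.55, with 68.6 to 310.7 in the others) and the highest mitochondrial shares of the drug group (13.2% and 15.9%). The part of these in the Acsf3 values was not tested. In the cyclosporine A table the values of Acsf3 lay at 15.7 and 15.8 in 2 saline libraries, at 12.04 to 13.3 in 3 drug libraries, at 7.59 and 8.27 in the other 2 saline libraries and at 3.92 in drug replicate 4.

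The genes around Acsf3 did not share its low values in the tacrolimus table. Within 250 kb, 8 other tested genes were listed, and in 0 of the 8 were tacrolimus replicates 4 and 6 both below the other 10 libraries. Spg7, a mitochondrial protease gene, had 29.1 and 33.9 FPKM in those 2 libraries and 27.0 to 34.0 in the others. Ankrd11, the nearest tested gene downstream, had 12.4 and 10.8, and 9.99 to 13.4 in the others. With cyclosporine A and saline, 2 of 8 tested neighbours, Trappc2l (10.2 against 14.4 to 21.9 rescaled FPKM) and Cbfa2t3 (0.062 against 0.0782 to 0.392), were lowest in drug replicate 4, where Acsf3 was also lowest. Cbfa2t3 was near the limit of detection in every library of that table. These libraries and counts were picked after the Acsf3 values had been seen.

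Acsm3 shares its far end with Eri2, an exoribonuclease gene on the opposite strand. The 2 genes overlap by 1080 bases (chromosome 1, 189540145 to 189541224), 4.05% of the Acsm3 span. The strand setting of the counting is not given in the sources used here, so fragments from the overlap cannot be assigned to either gene with certainty. Eri2 values followed those of Acsm3. In the cyclosporine A table Eri2 had 1.88, 2.51, 1.10 and 1.24 rescaled FPKM with saline and 5.32, 8.44, 10.2 and 1.49 with the drug, a log2 fold change of 1.28 (SE 0.42, limma adjusted p = 0.185). The 3 drug libraries with the highest Acsm3 were also the 3 above all saline libraries for Eri2. Eri2 averaged 18.3 ± 6.40 FPKM (SD, n = 6) with DMSO/PEG and 11.01 ± 3.75 (SD, n = 6) with tacrolimus. Its log2 fold change there was −0.67 (SE 0.24, limma adjusted p = 0.446).

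Other genes beside the Acsm cluster gave values of either sign. Rexo5 (listed as Exnef in the cyclosporine A table), an RNA exonuclease gene next to Eri2, had a log2 fold change of 1.14 with cyclosporine A (SE 0.38, limma adjusted p = 0.197) and 0.05 with tacrolimus (adjusted p = 0.968). Thumpd1, between Acsm4 and Acsm3, had 9.41 ± 0.448 (SD, n = 4) and 15.1 ± 3.23 (SD, n = 4) on the rescaled scale, without overlap and with a log2 fold change of 0.61 (limma adjusted p = 0.10). Umod, uromodulin of the thick ascending limb, lies on the other side of Acsm5 and had a log2 fold change of −1.36 with cyclosporine A, also without overlap (limma adjusted p = 0.0572), and −0.20 with tacrolimus (0.733). On the list of 9 cluster neighbours, 8 were tested with each drug and 0 were called, with 4 above and 4 below 0 in each.

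**Figure D3:**
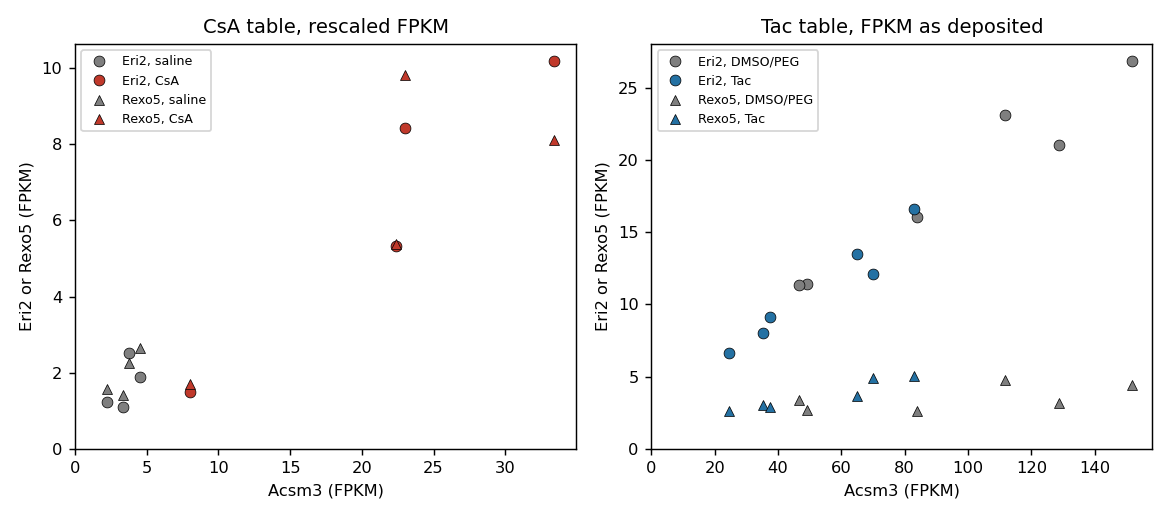
Eri2 (circles) and Rexo5 (triangles) against Acsm3 in each library, in FPKM on both axes, rescaled in the left panel and as deposited in the right. Colours mark vehicle (grey), cyclosporine A (CsA, red) and tacrolimus (Tac, blue). Eri2 increases with Acsm3 in both panels, while Rexo5 in the right panel stays between 2.59 and 5.02. In the left panel Rexo5 lies at 5.37, 9.83, 8.11 and 1.70 in CsA replicates 1 to 4 and at 1.41 to 2.64 with saline.

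After group means were taken off, the gene most like Acsm3 over the 12 libraries of the tacrolimus table was Eri2, with a Pearson r of 0.98 among 13038 genes compared. Avil (advillin, 0.95) and Cep295 (a centriole protein, 0.92) followed. Most like Acsf3 there were Krt15 (a keratin, 0.90), the mitochondrial transcript AY172581.14 (0.90) and Fam83h (0.89). Over the 8 libraries of the cyclosporine A table, among 9879 genes, Acsm3 was most like Btbd9 (0.997), Pebp1 (0.989) and Pdlim7 (0.988), and Acsf3 most like Aco1 (cytosolic aconitase, 0.999), Cwh43 (0.989) and Bmyc (0.987). The rank correlations (Spearman rho) were 0.976, 0.929 and 1 for the genes like Acsm3, and 0.881, 0.619 and 0.905 for those like Acsf3, whose lowest value there was drug replicate 4. The log2 fold changes of Btbd9 and Pebp1 with the drug itself were 0.17 and 0.03. These values describe the closest of many genes measured in the same few libraries. No gene was among the 3 nearest to the same member in both tables.

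No other acyl-CoA synthetase was called with either drug. Of the other acyl-CoA synthetases on a list of 20, 14 were tested with cyclosporine A and 0 were called, with a median log2 fold change of −0.15 (10 of 14 below 0). Acss2, which makes acetyl-CoA from acetate, had −0.50 (limma adjusted p = 0.238), and Slc27a2, a very long-chain synthetase and transporter, −0.47 (0.437). With tacrolimus 16 were tested and 0 called, with a median of −0.04 and Aacs, acetoacetyl-CoA synthetase, at −0.22 (limma adjusted p = 0.531) and Acsl1 at −0.17 (0.606).

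Glycine conjugation, the step after Acsm enzymes for aromatic acids, had 5 genes tested and 0 called with each drug. Glyat, the mitochondrial glycine N-acyltransferase, had 256 ± 26.7 (SD, n = 4) and 206 ± 30.7 (SD, n = 4) rescaled FPKM with saline and cyclosporine A, and its log2 fold change was −0.32 (limma adjusted p = 0.288). With tacrolimus it had 747 ± 37.1 (SD, n = 6) and 865 ± 67.7 FPKM (SD, n = 6), and its log2 fold change was 0.21 (0.362). The largest other values were those of Glyatl2 with cyclosporine A (0.38, limma adjusted p = 0.387) and Glyatl1 with tacrolimus (0.23, 0.797).

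Medium-chain oxidation had 15 genes tested with each drug and 0 called, with 12 below 0 and a median of −0.25 with cyclosporine A, and 10 below 0 and a median of −0.04 with tacrolimus. Echs1, enoyl-CoA hydratase, had the largest value with cyclosporine A (0.75, SE 0.73), with drug libraries from 0.319 to 16.7 rescaled FPKM. The tables give the name Echs1 to different identifiers, each called LOC100911186 in the other table, so its value is uncertain. Acaa2, the thiolase, had 0.72 (SE 0.53). With tacrolimus the largest were Acadsb (−0.18) and Etfdh (−0.16). Among 11 acyl-CoA thioesterases, which undo the synthetase reaction, Acot9 fell with tacrolimus. It averaged 22.04 ± 1.82 FPKM (SD, n = 6) with DMSO/PEG and 15.9 ± 1.46 (SD, n = 6) with the drug, and its log2 fold change was −0.45 (SE 0.07, limma adjusted p = 0.012). All 6 drug libraries of Acot9 lay below the vehicle range. Acot9 was the single gene called among these 5 lists with either drug. With a replicate block the call was lost (limma adjusted p = 0.129), and it held in the other 18 alternatives. Acot5 had −0.75 with tacrolimus (limma adjusted p = 0.153). With cyclosporine A Acot8, a peroxisomal thioesterase, had −0.69 (limma adjusted p = 0.154) and Acot12, a cytosolic acetyl-CoA hydrolase, 0.47 (0.112).

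The partners of Acsf3 in mitochondrial fatty acid synthesis and malonyl-CoA turnover had 16 genes tested with each drug and 0 called, with medians of −0.10 with cyclosporine A and −0.01 with tacrolimus. Lias, lipoic acid synthase, averaged 11.3 ± 0.748 rescaled FPKM (SD, n = 4) with saline and 7.04 ± 1.26 (SD, n = 4) with cyclosporine A, without overlap and with a log2 fold change of −0.63 (limma adjusted p = 0.0734). Mlycd, malonyl-CoA decarboxylase, had −0.53, also without overlap (limma adjusted p = 0.0971). With tacrolimus Acaca, acetyl-CoA carboxylase, had −0.37 (limma adjusted p = 0.0797) and Mecr, the enoyl reductase of this pathway, −0.17 (0.504). On deposited FPKM the medians of these 5 lists with cyclosporine A were −1.02 to −1.53, beside −0.86 for all genes.

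Markers of the tubule that houses these enzymes were examined beside Acsm3. In bulk kidney, fewer cells of a type and less RNA per cell cannot be told apart. With cyclosporine A the proximal tubule list had 15 genes tested, 1 called higher (Slc5a2, from 0.282 to 1.47 rescaled FPKM, log2 fold change 0.94, limma adjusted p = 0.0463), 12 below 0 and a median log2 fold change of −0.36. Its summed level ran from 1290 to 1800 rescaled FPKM with saline and from 716.5 to 1650 with the drug. The straight-segment list had 10 of 10 genes below 0, 1 called lower (Slc16a9, −0.96, limma adjusted p = 0.0328), and a median of −0.70. Its sum ran from 1278 to 1661 with saline and from 627.6 to 1340 with the drug. Urothelial genes were above 0 in 5 of 5 tested, with 1 called (Upk1a, 1.51, limma adjusted p = 0.0246) and sums of 1.64 to 4.27 with saline and 7.29 to 17.8 with the drug. Principal cell genes were above 0 in 6 of 6, with 0 called and 2 without overlap, against 10.6% of all tested genes without overlap. Podocyte and intercalated cell genes were each above 0 in 4 of 5, with 0 called and medians of 0.47 and 0.24. Endothelial genes were below 0 in 4 of 5, with 0 called and a median of −0.15. Thick ascending limb genes were below 0 in 4 of 5, with 0 called, and Slc12a1, its sodium-potassium-chloride carrier, had −0.95 without overlap (limma adjusted p = 0.0572). The distal convoluted tubule list had 2 genes above and 2 below 0, with Calb1 (calbindin) called lower (−1.85, limma adjusted p = 0.029). These single-gene calls with cyclosporine A were not stable: of 16 alternatives, Calb1 and Slc16a9 each lost the call in 8 (adjusted p up to 0.101 and 0.115), Slc5a2 in 10 (up to 0.154) and Upk1a in 6 (up to 0.101). The part of these shifts in the Acsm3 values was not tested. With tacrolimus 0 of 15 proximal tubule and 0 of 10 straight-segment genes were called, with medians of 0.03 and −0.03. The distal convoluted tubule list had 4 of 4 tested genes called lower with tacrolimus, with a median of −1.06. The thick ascending limb list had 4 of 5 genes below 0 and 0 called, with a median of −0.16 and the sums given above beside Acsf2. The adipocyte list had 7 of 7 tested genes below 0 with tacrolimus, 1 of them called (Ucp1, −3.33, limma adjusted p = 0.00106), and a median of −0.88. Its sum ran from 91.7 to 310.7 FPKM with DMSO/PEG and from 52.8 to 169.8 with the drug. The part of these shifts in the tacrolimus values of Acsm3, Acsf2 and Acsf3 was not tested.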

How the data were processed

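Gene values for 20 rat kidney libraries were analysed from 2 deposited tables. The authors deposited FPKM per gene and library. The unit was read from the values, and HISAT2 and build rn6 are named in the submitters' processing notes. The counting program, strand setting and annotation release are not given in the sources used here. Fragments were recovered by dividing FPKM × gene length by the value of 1 fragment. With the listed lengths, all values above 0 of the tacrolimus table and 74.6% of those of the cyclosporine A table came out whole within 0.01. For members that did not, the shortest length that made all 8 libraries whole was used.

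The cyclosporine A table was rescaled by median-of-ratios factors over 12435 genes. limma 3.58.1 (R 4.3.3) was fitted to log2(FPKM + 1) within each table, with group as the term, trended empirical Bayes moderation and p-values adjusted by Benjamini-Hochberg over all tested genes (FPKM of at least 0.1 in 4 or 6 libraries, threshold 0.05). Such fold changes understate the change of low genes. No value column lacked a sample. A symbol on several identifiers was read from the one on an assembled chromosome. Sequence matches used RefSeq tables of GRCr8.

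Members, gene lists and scaling were chosen with earlier results of these data known. Named genes were all members, the 2 genes of largest change per pathway list, genes within 250 kb of the Acsm cluster, and the 3 genes most like Acsm3 or Acsf3 with a mean FPKM of at least 1. Genes around Acsf3, and the marker and neighbour genes given by name, were chosen after their values were seen. Alternatives were another pseudocount (0.1), no filter or a higher one (0.5), no trend, library weights, other scalings, a replicate block and leaving out each library.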

Additional observations from a re-analysis of the deposited data

Results flagged for a closer look

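Within groups, 3 values stood apart from the rest of their group by Dixon's criterion, of 24 combinations of gene and group examined, and chance alone gives about 1 in 20. Acsf3 had been chosen for its spread, so its mark is a description. The lowest Acsf3 value with cyclosporine A was 3.92 rescaled FPKM in replicate 4, a gap of 0.87 of the group's range against a critical value of 0.829. The lowest Acsf2 value with cyclosporine A was 0.726 in the same library, a gap of 0.883. The highest Acsf2 value with tacrolimus was 29.7 FPKM in replicate 6, a gap of 0.708 against a critical value of 0.625. The 2 low Acsf3 values with tacrolimus were not marked by this criterion, which looks at a single extreme library.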

How the results depend on the processing

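The number of genes called with cyclosporine A was 72 of 14129 on rescaled FPKM. It was 10794 on deposited FPKM (34 higher, 10760 lower), 111 with the higher filter, 1 with no filter and 3 with a replicate block, and it ran from 1 to 115 when libraries were left out in turn (20 without saline replicate 2 and 115 without cyclosporine A replicate 4). Acsm3 kept its sign in all 16 alternatives, from 1.08 on deposited FPKM to 2.62. With tacrolimus the count was 49 of 16808, 30 with the replicate block, and 34 to 44 with a library left out. Under the block no member passed with tacrolimus, where the adjusted p was 0.362 for Acsf2 and 0.326 for Acsm3, and for cyclosporine A no p of a member is given. Acot9 with tacrolimus lost its call under the block (adjusted p = 0.129) and held it in the other 18 alternatives. Same-numbered libraries did not deviate together (correlations −0.14 to 0.18), so the number is not taken as a pairing. Without DMSO/PEG replicate 2 or tacrolimus replicate 3 the change of the Acsm1/Acsm2 locus with tacrolimus turned to −0.02 and −0.02458 (0.01 with all libraries, highest 0.03047 without tacrolimus replicate 2). The mitochondrial share differed by 24.9 percentage points with cyclosporine A and by 21.6 to 27.8 with a library left out. With tacrolimus the difference was 0.53 points, and −0.16 to 0.90 with a library left out, the negative value being that without tacrolimus replicate 6. The cause of these shifts was not tested. Depth limited Acsm4, with 1 to 16 fragments per library in the tacrolimus table and none in 4 libraries of the other.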

Other observations

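Levels in the 2 tables were normalized separately, and tests were not made across them. Deposited FPKM were divided by the non-mitochondrial share of each library's fragments. In the tacrolimus table, whose median gene ratios were already equal, this is not an exact scaling to nuclear fragments. Acsm3 then had 13.8 ± 3.77 FPKM (SD, n = 4) with saline and 107.9 ± 48.1 (SD, n = 6) with DMSO/PEG. Acsf2 had 3.77 ± 0.549 (SD, n = 4) and 32.0 ± 3.51 (SD, n = 6). For Acsf3 the same values were 47.3 ± 17.6 (SD, n = 4) and 37.9 ± 16.8 (SD, n = 6). The vehicle kidneys of the 2 tables thus differed by several fold for Acsm3 and Acsf2 and overlapped for Acsf3. With cyclosporine A Acsm3 had 91.2 ± 41.1 (SD, n = 4). Of its libraries, replicate 4, at 37.0, lay below the range of the DMSO/PEG libraries (54.2 to 172) and the highest, replicate 3, was at 137.0. Acsf2 and Acsm3 values come from whole fragments at the same listed length in both tables. Vehicle, table and processing change together between these groups and cannot be told apart.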
